A study of Mus musculus with 9 samples.

Results

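Brown adipose tissue (BAT), the heat-producing fat, was compared with inguinal white adipose tissue (iWAT), a subcutaneous storage depot, by the mRNA carried on immunopurified ribosomes. The comparison took the 3 libraries titled BAT and the 3 titled iWAT, 6 of the 9 libraries of the series. It tested the 10374 genes that reached 1 FPKM in 3 or more of the 9 libraries. FPKM is the fragment count scaled to transcript length and library size, so levels of different genes can be set side by side. All libraries came from C57BL/6 mice of 8 weeks with the genotype given as wild type, and neither group had a treatment. Frozen tissue was homogenised, its lipid layer was removed and ribosomes were captured with an antibody against GFP. The labels do not state which cells carried the tag, although the deposited table is named for adiponectin, an adipocyte hormone. They also do not say whether each library came from a separate animal, so the p-values measure only the spread between these samples, which may be technical. The other 3 libraries, from epididymal white fat (eWAT), entered the fit for its estimate of spread and are given here as a reference level. The third BAT library is called brown in its title and source, but its tissue field says inguinal. It held the brown fat marker Ucp1 at 3054 FPKM and was kept as BAT.

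Brown adipocytes burn fatty acids to make heat. Noradrenaline from sympathetic nerves raises cyclic AMP (cAMP) in the cell, cAMP-dependent protein kinase (PKA) starts lipolysis at the lipid droplets, and the fatty acids released both fuel the mitochondria and open uncoupling protein 1, which lets protons return without making ATP. White adipocytes hold 1 large droplet, export fatty acids on demand and secrete leptin, adipsin and other proteins into the blood.

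Differences are given as BAT minus iWAT on the log2(FPKM + 1) scale, which understates the change of low genes, and a gene was called when its adjusted p (limma, Benjamini-Hochberg over all tested genes) was below 0.05. Of the tested genes 57.5% were called, 34.5% higher in BAT and 22.9% higher in iWAT. The median difference was 0.23. When libraries were scaled by the median ratio of their genes, that median went to 0.04 and the calls split into 3008 higher and 2913 lower in BAT. Differences of about 0.2 thus depend on the scaling. Where depots are said not to overlap, all BAT libraries lay on one side of all iWAT libraries. The share of all tested genes without overlap is not given, so this describes only the genes named. For the 15 largest differences in each direction it was a condition of being named. Estimated depth was 11.1, 21.2 and 14.8 M reads in BAT and 4.65, 3.48 and 2.91 M in iWAT (M, 1e6), so depth and depot cannot be told apart. In eWAT it was 16.05, 4.46 and 4.57 M, so eWAT 1 alone among the white fat libraries lay inside the BAT range. Libraries correlated at 0.985 to 0.986 within BAT, at 0.899 to 0.955 within iWAT and at 0.719 to 0.864 between the depots (Pearson, log2 scale, across genes, which are not replicates). The iWAT 1 library was nearer to eWAT (0.945 to 0.963) than to the other iWAT libraries (0.899 to 0.934). Sums of muscle markers were 113 to 215 FPKM in BAT and 1915 to 2622 FPKM in iWAT, and sums of skin epithelium markers 34.6 to 73.1 and 231 to 628. Their part in the differences below was not tested. In mRNA captured from homogenised tissue, fewer cells of a type, less RNA per cell and weaker capture cannot be told apart.

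**Figure D1:**
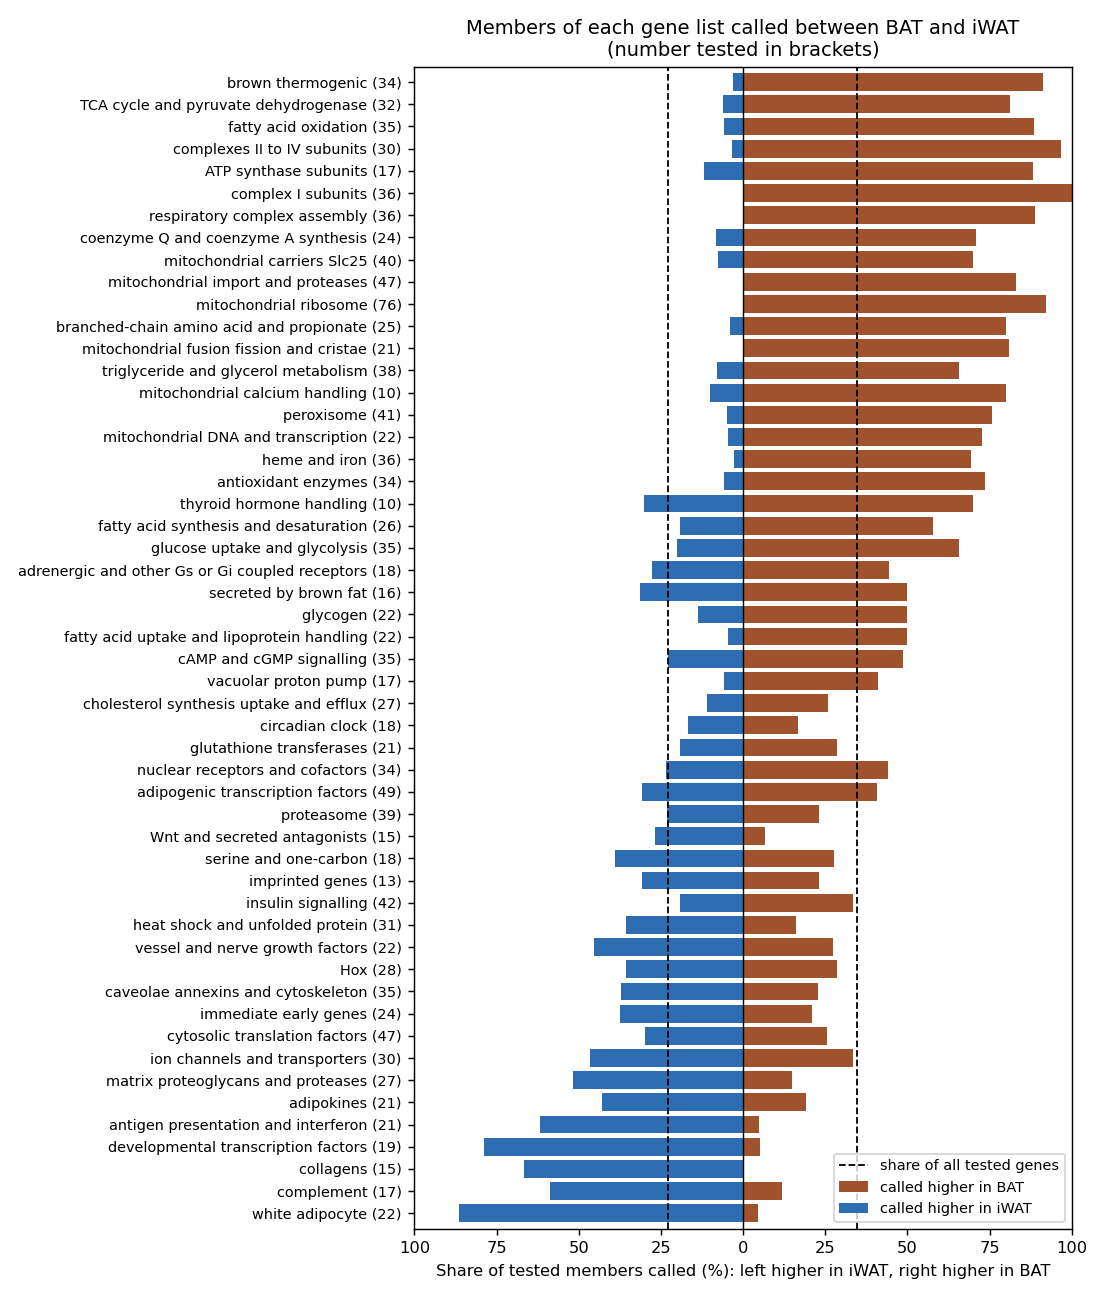
Share of tested members called in each gene list, in percent, with members higher in BAT to the right in brown and members higher in iWAT to the left in blue. Dashed lines mark the shares over all tested genes (34.5% and 22.9%), and the number tested stands in brackets. Cell type marker lists, such as muscle and epithelium, are not drawn. Lists of mitochondrial parts reach far past the right line, while the white adipocyte and developmental transcription factor lists reach far past the left line.

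Among channels and transporters, 10 of 30 tested genes were called higher in BAT and 14 higher in iWAT. The share higher in BAT (33.3%) was close to the 34.5% of all tested genes. The share higher in iWAT (46.7%) was above the 22.9% of all tested genes. Otop1 encodes a proton channel of the plasma membrane. Its levels were 99.2, 97.6 and 86.8 FPKM in BAT and 1.74, 3.62 and 0.353 FPKM in iWAT. The difference was 5.21 (SE 0.37, adjusted p = 8.14e-06), or 37.0-fold on the shifted scale, and eWAT lay lower still at 0.151 to 0.374 FPKM. The gene spans chromosome 5, 38667211 to 38695448 in mm9. Letmd1, which encodes a mitochondrial inner membrane protein needed for brown fat respiration, stood at 260, 243 and 245 FPKM in BAT against 8.86, 7.22 and 4.57 FPKM in iWAT (difference 5.03, SE 0.24, adjusted p = 1.23e-06; chromosome 15, 100299465 to 100309683). The lowest BAT library was far above the highest iWAT library for both genes. The potassium channel Kcnk3 (difference 3.90), the ATP-gated channel P2rx5 (3.51), the bicarbonate transporter Slc4a4 (3.64), the amino acid transporter Slc36a2 (2.55) and the calcium release channel Itpr2 (1.95) were also called higher in BAT. The volume-regulated channel subunit Lrrc8a (-1.88) and the muscle calcium pump Atp2a1 (-3.27) were lower, the latter beside the muscle markers. Kng2, a kininogen gene, was at 44.2, 33.3 and 30.4 FPKM in BAT and listed at 0 in all 3 iWAT libraries. Of 34 tested genes in the list of brown thermogenic markers, 31 were called higher in BAT and 1 higher in iWAT (2 without iWAT 1, 0 without BAT 1 or BAT 3), with a median difference of 3.73. Among them the transcriptional regulator Prdm16 had only a small difference, at 1.88, 1.20 and 1.10 FPKM against 0.779, 0.472 and 0.727 FPKM (0.52, SE 0.19, adjusted p = 0.0413), and its call was lost under 11 of the alternative settings (highest adjusted p = 0.153). These included leaving out BAT 1, BAT 2, iWAT 2, iWAT 3, eWAT 2 or eWAT 3. The coactivator Ppargc1a overlapped between the depots, at 4.36, 3.79 and 15.1 FPKM in BAT and 3.99, 9.0 and 7.96 FPKM in iWAT, and was not called (adjusted p = 0.958).

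Cell surface receptors differed in both directions. Adra1a, the alpha-1A adrenergic receptor, which couples to calcium rather than to cAMP, was at 8.19, 8.96 and 10.6 FPKM in BAT and 1.06, 0.743 and 0.686 FPKM in iWAT (difference 2.48, SE 0.23, adjusted p = 2.7e-05; chromosome 14, 67254088 to 67390005). The prostaglandin E receptor Ptger1, with the same kind of coupling, was at 12.1, 14.6 and 13.7 FPKM against 1.41, 0.574 and 0.435 FPKM (difference 3.04, SE 0.24, adjusted p = 1.32e-05). The purinergic receptor P2ry1 (difference 2.26) and the beta-1 adrenergic receptor Adrb1 (3.16) were also higher in BAT. None of these receptors overlapped between the depots. The beta-3 receptor Adrb3, the main target of selective agonists in rodent fat, gave a different picture. Its levels were 83.7, 66.0 and 106 FPKM in BAT and 105, 46.7 and 41.3 FPKM in iWAT, which overlapped and were not called (difference 0.51, adjusted p = 0.217). In eWAT it was at 164 to 173 FPKM.

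Other receptors were lower in BAT. Ffar2, the receptor for acetate and propionate, couples to inhibitory G proteins. Its BAT levels of 1.84, 1.24 and 3.32 FPKM stood against 79.9, 30.7 and 71.4 FPKM in iWAT and 27.5 to 41.6 FPKM in eWAT. The depots did not overlap, and the difference was -4.24 (SE 0.38, adjusted p = 2.56e-05; chromosome 7, 31603376 to 31608794). Sucnr1, the succinate receptor, was at 1.59, 2.25 and 1.60 FPKM against 21.3, 6.71 and 12.7 FPKM (-2.25). The corticotropin receptor Mc2r differed by -1.14 and the thyrotropin receptor Tshr by -1.37, and the call for Tshr was lost without BAT 2 (adjusted p = 0.058). Npr3, which clears natriuretic peptides without signalling, was lower in BAT at 5.62, 3.52 and 7.30 FPKM against 21.4, 9.77 and 14.2 FPKM (-1.29). Of 18 tested receptors in the list, 8 were called higher in BAT and 5 higher in iWAT. These shares, 44.4% and 27.8%, stand beside 34.5% and 22.9% of all tested genes.

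Downstream of these receptors, isoforms of the cAMP pathway differed in both directions. The stimulatory G protein gene Gnas was at 2779, 1932 and 2810 FPKM in BAT and 1519, 3626 and 2514 FPKM in iWAT and was not called (adjusted p = 0.938). The inhibitory Gnai2 was lower in BAT (-1.42). Among adenylate cyclases, which make cAMP, Adcy5 was at 0.990, 0.889 and 1.67 FPKM in BAT and 22.1, 9.39 and 15.5 FPKM in iWAT (-2.87, SE 0.32, adjusted p = 8.28e-05; chromosome 16, 35154963 to 35305823). Adcy3 went the other way, at 8.16, 10.7 and 8.53 FPKM against 1.27, 1.69 and 2.36 FPKM (difference 1.88). Adcy6 was at 20.7, 20.2 and 18.2 FPKM against 16.7, 13.1 and 9.91 FPKM and missed the threshold (0.56, adjusted p = 0.0577). The PKA regulatory subunits Prkar2b (2.78) and Prkar1a (1.26) were higher in BAT, as were the cAMP-degrading enzymes Pde4d (2.95) and Pde8a (2.53). Rgs2 (3.27) and Rgs7 (2.44), which shorten G protein signals, were higher too. In the cAMP list of 35 tested genes, 17 were called higher in BAT and 8 higher in iWAT. The latter count was 4 without BAT 2, BAT 3 or iWAT 3 and 5 without BAT 1 or with no filter. The shares of the cAMP list, 48.6% and 22.9%, stand beside 34.5% and 22.9% of all tested genes.

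**Figure D2:**
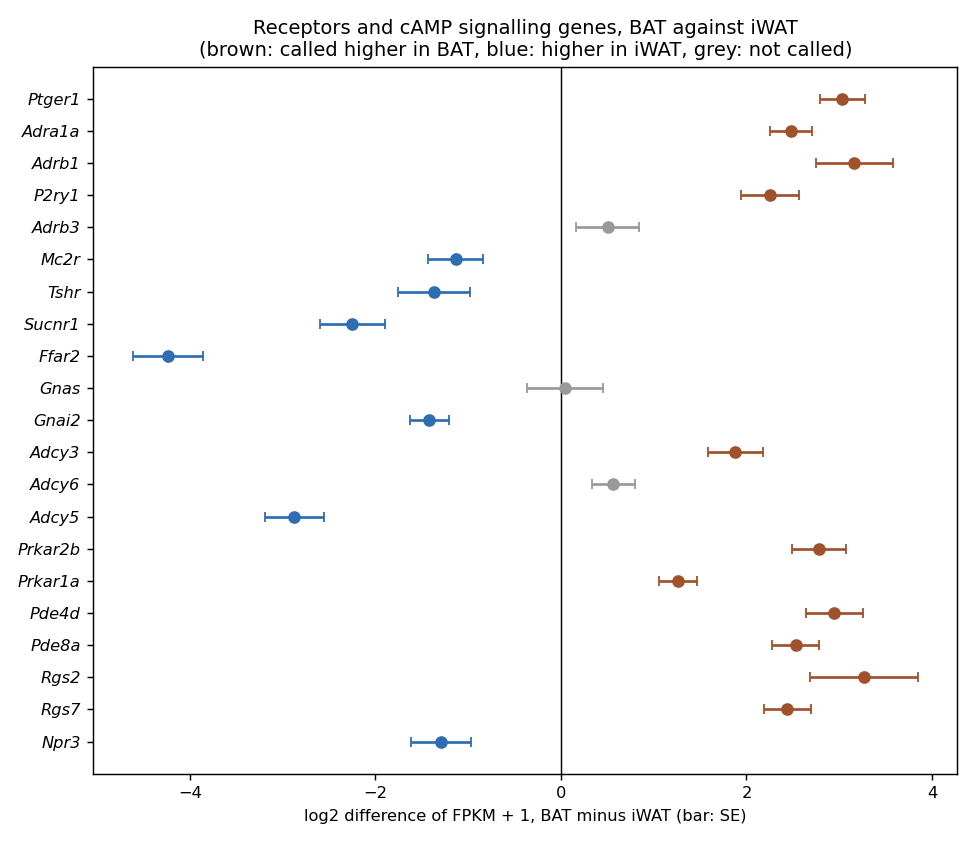
Difference between BAT and iWAT, on the log2(FPKM + 1) scale with its standard error, for 21 receptor and cAMP pathway genes. Brown points were called higher in BAT, blue points higher in iWAT and grey points were not called; Ptger1, Adra1a and Adrb1 lie to the right, Ffar2 and Adcy5 far to the left, and Adrb3 and Gnas near 0.

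The lipid droplet genes named here went in both directions. Plin5 coats droplets that touch mitochondria. It was at 119, 120 and 112 FPKM in BAT and 4.94, 1.16 and 0.880 FPKM in iWAT, a difference of 5.35 (SE 0.38, adjusted p = 8.14e-06) or 40.9-fold on the shifted scale. Plin4, another droplet coat protein and the neighbouring gene in mm9 (Plin5 at chromosome 17, 56251024 to 56257019, and Plin4 at 56240014 to 56249225), went the other way. It was at 15.8, 11.6 and 16.8 FPKM in BAT and 82.0, 29.4 and 58.3 FPKM in iWAT (-1.77). Neither gene overlapped between the depots. Cidec, which fuses droplets, was at 549, 814 and 636 FPKM in BAT and 1460, 854 and 908 FPKM in iWAT and just missed the threshold (-0.66, adjusted p = 0.0566).

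Enzymes of triglyceride synthesis included large differences in each direction. Agpat2 adds the second fatty acid to the glycerol backbone. It was at 940, 640 and 684 FPKM in BAT and 67.8, 15.6 and 5.90 FPKM in iWAT (difference 5.23, SE 0.65, adjusted p = 0.000158). Agpat9, a glycerol-3-phosphate acyltransferase, was at 3.89, 7.64 and 10.1 FPKM against 46.3, 31.9 and 36.8 FPKM (-2.32, SE 0.30, adjusted p = 0.000208; chromosome 5, 101274732 to 101328121). Gpd1, which makes glycerol-3-phosphate in the cytosol, and Gpd2, which oxidises it at the mitochondrion, together form a shuttle for reducing equivalents. Gpd1 was at 1111, 1052 and 1010 FPKM against 167, 75.4 and 67.4 FPKM (3.47), and Gpd2 at 67.3, 55.2 and 58.6 FPKM against 6.37, 3.76 and 4.37 FPKM (3.42). The glycerol channel Aqp7 was higher in BAT as well (1.96). Of 38 tested genes of triglyceride and glycerol metabolism, 25 were called higher in BAT and 3 higher in iWAT (median 1.57). The shares were 65.8% and 7.89%, beside 34.5% and 22.9% of all tested genes. The iWAT count was 5 after median-ratio scaling and 7 under quantile normalization.

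Lipolysis and lipid uptake included 2 central enzymes that were not called. Hormone-sensitive lipase, Lipe, was at 356, 405 and 313 FPKM in BAT and 527, 251 and 337 FPKM in iWAT (difference 0.01, adjusted p = 0.986; called at -0.69 under quantile normalization). Lipoprotein lipase, Lpl, was at 566, 780 and 594 FPKM against 738, 422 and 407 FPKM (adjusted p = 0.283). In both the depots overlapped. Lmf1, a chaperone that Lpl needs to fold, was at 27.9, 31.3 and 27.7 FPKM in BAT and 8.83, 4.65 and 3.30 FPKM in iWAT (2.27). The apolipoprotein Apoc1 was higher in BAT by 2.25. Of 22 tested genes of fatty acid uptake and transport, 11 were called higher in BAT and 1 higher in iWAT (median 0.83). That 1 was lost when any library other than iWAT 2 was left out, and the count was 2 without iWAT 2 and 3 after median-ratio scaling.

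In fatty acid synthesis, elongases differed in both directions. Elovl6 was at 60.2, 51.1 and 44.7 FPKM in BAT and 11, 6.02 and 4.09 FPKM in iWAT (2.80), while Elovl1 was lower by -1.09, a call lost without BAT 3 (adjusted p = 0.0652). The synthase Fasn differed by 2.25. The 3 Fads desaturase genes named here were lower in BAT. Fads1 was at 0.811, 1.48 and 1.5 FPKM against 15.4, 3.87 and 5.44 FPKM (-1.84), Fads2 differed by -1.36, and Fads3 was at 1.31, 1.67 and 2.46 FPKM against 37.6, 11.2 and 19.8 FPKM (-2.95). No BAT library reached an iWAT library for any of the 3 genes. Acsm3, a mitochondrial enzyme of medium-chain fatty acid activation, stood at 29.2, 24.4 and 23.1 FPKM in BAT and 1.02, 0.366 and 0 FPKM in iWAT (4.24, SE 0.33, adjusted p = 1.21e-05). Of 26 tested genes of this list, 15 were called higher in BAT and 5 higher in iWAT (3 without BAT 3).

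Mitochondrial transport showed how broad the difference was. Slc25a20 carries acylcarnitines into mitochondria for oxidation. It was at 342, 400 and 350 FPKM in BAT and 30.0, 17.8 and 11 FPKM in iWAT, a difference of 4.25 (SE 0.32, adjusted p = 1.11e-05; chromosome 9, 108564429 to 108586972). The coenzyme A carrier Slc25a42 was also higher in BAT (3.62). Slc25a10, which exports malate and succinate in exchange for phosphate, was a clear exception. It was at 3.35, 5.73 and 6.18 FPKM in BAT and 62.2, 26.7 and 29.4 FPKM in iWAT (-2.66, SE 0.33, adjusted p = 0.000158; chromosome 11, 120353154 to 120360501). Among 40 tested carriers of the Slc25 family, 28 were called higher in BAT and 3 higher in iWAT (median 1.69). Brp44l, a subunit of the pyruvate carrier, was at 1945, 1501 and 1448 FPKM against 469, 176 and 148 FPKM (2.81), and Letm1, an inner membrane cation exchanger, differed by 3.19. Of 10 tested genes of mitochondrial calcium handling, 8 were higher in BAT and 1 higher in iWAT (0 without BAT 3 or iWAT 3).

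Cofactor synthesis had an isoform switch. Pantothenate kinases catalyse the first step of coenzyme A synthesis. Pank1 was at 90.3, 115 and 95.0 FPKM in BAT and 1.17, 2.35 and 1.33 FPKM in iWAT (5.29, SE 0.25, adjusted p = 1.23e-06; chromosome 19, 34885384 to 34953945), or 39.1-fold on the shifted scale. Pank3 was lower in BAT at 11.9, 11.3 and 9.01 FPKM against 24.6, 23.3 and 26.6 FPKM (-1.15). Pank2 overlapped and was not called (adjusted p = 0.607). The later enzymes of the pathway, Ppcs and Coasy, added after their values were seen, were higher in BAT by 1.89 and 1.04. In coenzyme Q synthesis, Adck3 was at 217, 194 and 200 FPKM against 8.01, 4.69 and 3.59 FPKM (5.05, SE 0.26, adjusted p = 1.77e-06), and Coq10a differed by 3.97. In the list of coenzyme Q and coenzyme A genes, 17 of 24 tested were called higher in BAT and 2 higher in iWAT.

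Most tested genes of the machinery that builds mitochondria were higher in BAT. Protein import had 39 of 47 tested genes higher in BAT and none called higher in iWAT (median 1.67), or 1 under quantile normalization. Grpel1, which releases substrates from the import motor, was at 78.5, 72.6 and 77.4 FPKM in BAT and 9.48, 1.93 and 1.05 FPKM in iWAT (4.28), and the channel subunit Timm23 was at 529, 557 and 547 FPKM against 143, 70.3 and 67.3 FPKM (2.62). Assembly factors of the respiratory chain had 32 of 36 higher and none lower, with Lyrm7, a factor for complex III, at 19.6, 14 and 16.7 FPKM against 1.21, 0.574 and 0.515 FPKM (3.34). Fusion, fission and cristae genes had 17 of 21 higher and none lower. Apoo, a cristae organising subunit, differed by 4.88 and Mtfp1, which promotes fission, by 3.20. The fusion proteins Mfn1 (1.61), Mfn2 (1.05) and Opa1 (1.47) and the fission motor Dnm1l were added after their values were seen. Dnm1l was at 9.71, 8.75 and 9.16 FPKM in BAT, inside the iWAT range of 6.91 to 12.1 FPKM, and was not called (adjusted p = 0.919). Factors for mitochondrial DNA had 16 of 22 higher and 1 lower. The transcription factor Tfb2m was at 65.8, 54.7 and 59.1 FPKM against 7.33, 4.22 and 4.02 FPKM (3.33), and the packaging protein Tfam at 17.7, 17.4 and 15.1 FPKM against 5.92, 3.01 and 4.00 FPKM (1.77). None of the members named in this paragraph as called overlapped between the depots.

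Promoter windows are shown for mitochondrial genes because they moved together and because the nuclear receptors that drive oxidative genes read a short element. The letters AAGGTCA, the extended element read by estrogen-related receptors, were searched on both strands in the RefSeq windows of 300 bases (GRCm38.p6, 250 bases before to 50 after the start) of 8210 of the tested genes. They were present in 342 of 10468 promoters (3.27%). The share was 3.9% (144 of 3695) among promoters of genes called higher in BAT, 2.54% (60 of 2359) among those higher in iWAT and 3.13% (138 of 4414) among those not called. The element CCGGAAGT of ETS factors was in 8.55% of all promoters, in 9.88% of those higher in BAT and in 5.51% of those higher in iWAT. The NRF1 core GCGCATGCG was in 3.77%, 4.44% and 2.71%. Most promoters of genes in either direction therefore lacked each run of letters within the window. The 6 windows below are examples from promoters of list members called higher in BAT, each with a match before the start site. Not every promoter with a match was eligible to be shown, so these need not hold the largest differences among list members. Capitals mark the match, written as TGACCTT where it lies on the other strand. Acadm, Slc25a34 and Timm8b are named only because their windows are shown, after their values were seen.
Coq10a: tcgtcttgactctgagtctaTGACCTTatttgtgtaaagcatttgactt
Acadm: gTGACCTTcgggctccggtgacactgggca
Ndufb2: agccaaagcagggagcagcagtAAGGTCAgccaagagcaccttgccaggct
Slc25a34: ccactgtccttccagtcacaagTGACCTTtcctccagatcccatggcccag
Isca1: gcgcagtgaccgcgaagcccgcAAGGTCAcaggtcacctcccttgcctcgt
Timm8b: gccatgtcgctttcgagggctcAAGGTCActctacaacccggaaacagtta
In GRCm38.p6 these lie at chr10:128370239-128370287 (minus strand), chr3:153944864-153944893 (minus), chr6:39592362-39592412 (plus), chr4:141623925-141623975 (minus), chr13:59769896-59769946 (minus) and chr9:50603785-50603835 (plus). The match begins 230, 249, 181, 119, 135 and 94 bases before the start site. Coq10a, for coenzyme Q handling, was at 89.4, 84.3 and 68.5 FPKM in BAT and 9.79, 3.19 and 2.07 FPKM in iWAT (3.97). Acadm, the medium-chain acyl-CoA dehydrogenase, was at 1719, 2281 and 1938 FPKM against 254, 160 and 152 FPKM (3.41). Ndufb2, a complex I subunit, was at 690, 535 and 644 FPKM against 111, 39.9 and 48.7 FPKM (3.35). The other differences were 2.63 for the carrier Slc25a34, 2.62 for the iron-sulfur cluster protein Isca1 and 2.45 for the import chaperone Timm8b. In all 6 genes the depots did not overlap.

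Where a family has several isoforms, each isoform's share of the family's summed FPKM sets aside a change common to the family. The difference of a share was tested by an exact two-sided permutation over samples, which with 3 against 3 cannot go below 0.1, and the adjusted p over 66 shares was 0.116 wherever the depots did not overlap. None of the shares therefore passes a threshold of 0.05. Pank1 made up 78.5%, 84.0% and 82.9% of pantothenate kinase mRNA in BAT and 3.38%, 6.22% and 3.63% in iWAT, where Pank3 led with 61.8% to 72.5%. Ldhb, the lactate dehydrogenase subunit typical of oxidative tissue, made up 39.8%, 48.2% and 40.8% of its family in BAT and 6.60%, 8.91% and 5.79% in iWAT. Among phosphofructokinases Pfkl held 73.4% to 78.0% in BAT and 35.8% to 50.2% in iWAT. The muscle isoform Pfkm took 34.8% to 54.6% in iWAT, where muscle markers were higher as well. Adcy5 was 2.72% to 5.67% of adenylate cyclase mRNA in BAT and 34.9% to 54.1% in iWAT. Dgat2 held 82.4% to 87.6% of diacylglycerol acyltransferase mRNA in BAT and 45.5% to 67.1% in iWAT. Prkar2b was 81.7% to 85.1% and 54.5% to 69.2% of PKA regulatory mRNA, and the pyruvate dehydrogenase kinase Pdk4 was 68.0% to 77.9% and 26.4% to 37.4% of its family. Depots did not overlap for any of these.

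ATP synthase subunit c, the ring through which protons turn the enzyme, is encoded by Atp5g1, Atp5g2 and Atp5g3, and its supply is known to limit the enzyme in brown fat. Atp5g1 was at 3.76, 6.67 and 4.20 FPKM in BAT and 35.5, 20.1 and 21.5 FPKM in iWAT (-2.17). Atp5g3 was also lower in BAT, at 735, 662 and 623 FPKM against 2014, 1924 and 2022 FPKM (-1.56). Atp5g2 was higher, at 726, 799 and 707 FPKM against 311, 183 and 173 FPKM (1.79), and its share of the family was 49.6% to 54.4% in BAT and 7.79% to 13.2% in iWAT. The catalytic subunit Atp5b, for comparison, was at 2727, 2968 and 2848 FPKM against 486, 338 and 265 FPKM (3.01). Of 17 tested ATP synthase genes, 15 were called higher in BAT, and the 2 called higher in iWAT were Atp5g1 and Atp5g3. Near-identical copies of subunit c genes make the split among these 3 uncertain.

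**Figure D3:**
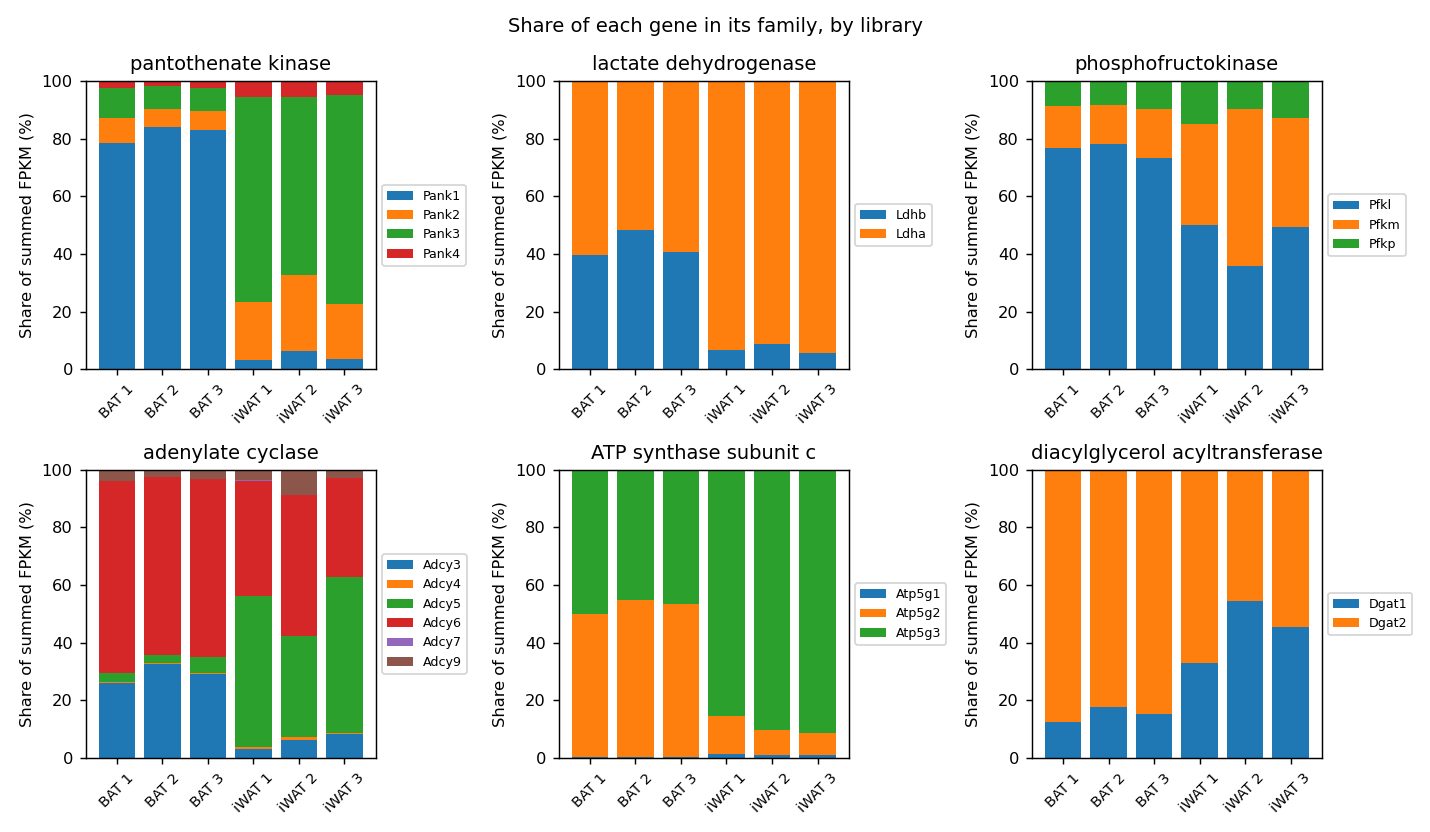
Share of each isoform in the summed FPKM of its family, in percent, as stacked bars for the 3 BAT and 3 iWAT libraries. Pank1 fills most of the BAT bars (78.5% to 84.0%) and little of the iWAT bars, while Adcy5 and Atp5g3 take a larger part of the iWAT bars.

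Lactate and pyruvate handling differed by isoform. Ldhb, named above, was at 571, 885 and 631 FPKM in BAT and 53.6, 35.1 and 28.5 FPKM in iWAT (4.14). Ldha was at 863, 953 and 914 FPKM against 759, 359 and 464 FPKM (0.86, adjusted p = 0.0213), and its call was lost under median-ratio scaling, under quantile normalization (adjusted p = 0.754) and without any 1 of BAT 1, BAT 2, BAT 3, iWAT 2 and iWAT 3. The monocarboxylate transporter Slc16a1 was higher in BAT (2.83). Pdk4, a kinase that inactivates pyruvate dehydrogenase, was at 479, 450 and 538 FPKM against 13.9, 8.47 and 11.6 FPKM (5.33), and Pdk2 differed by 3.14, whereas Pdk3 was lower (-1.52). The glucose transporter Slc2a1 was lower in BAT, at 6.67, 3.11 and 2.92 FPKM against 9.34, 29.1 and 17.7 FPKM (-1.85, adjusted p = 0.0109). Hk2 was higher by 1.10 but not called without BAT 3 (adjusted p = 0.0586). In the list of glycolysis, pentose phosphate and glucose entry genes, 23 of 35 were higher in BAT and 7 higher in iWAT, the latter 4 without BAT 2 or without BAT 3.

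Glycogen genes differed in both directions. Ppp1r3b brings the phosphatase that activates glycogen synthase to the particle. It was at 45.5, 26.5 and 25.9 FPKM in BAT and 1.07, 1.70 and 1.59 FPKM in iWAT (3.74; chromosome 8, 36438795 to 36451178). The synthase usually found in liver, Gys2, was at 12.1, 19.5 and 11.2 FPKM against 2.54, 3.44 and 0.397 FPKM (2.41), while Gys1 differed by 0.98. The branching enzyme Gbe1 (2.67) and the phosphorylase Pygl (1.33) were higher in BAT. The brain and muscle phosphorylases Pygb (-1.12) and Pygm (-3.58) were lower, Pygm beside the muscle markers. Of 22 tested genes 11 were higher in BAT and 3 higher in iWAT, the latter 5 after median-ratio scaling or with array weights.

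Of 8 tested genes of the creatine cycle 2 were called higher in BAT and 4 higher in iWAT. Phospho1, a phosphatase for phosphocholine and phosphoethanolamine, was at 43.0, 33.7 and 35.1 FPKM in BAT and 0.587, 0.201 and 0 FPKM in iWAT (4.94, SE 0.23, adjusted p = 1.18e-06; chromosome 11, 95685813 to 95693454). Alpl, an alkaline phosphatase placed in futile creatine cycling, was at 3.26, 1.91 and 4.33 FPKM against 0.419, 0 and 0.674 FPKM (1.60). The cytosolic creatine kinase Ckb, linked to the same cycle, was at 12.3, 21.4 and 19.1 FPKM in BAT and 25.9, 30.6 and 22.6 FPKM in iWAT and was not called (-0.58, adjusted p = 0.0642). The mitochondrial kinase Ckmt1 was lower in BAT, at 2.33, 0.959 and 1.58 FPKM against 6.24, 25.3 and 10.1 FPKM (-2.32), and the sarcomeric Ckmt2 was listed at 0 in all 3 BAT libraries and at 3.23 to 4.93 FPKM in iWAT. The creatine transporter Slc6a8 was lower (-1.57, adjusted p = 0.0211), a call lost with no filter and without BAT 2, BAT 3, iWAT 2 or iWAT 3 (highest adjusted p = 0.0809). Muscle markers were higher in the same iWAT libraries, and their part in the creatine kinase values was not tested.

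Serine synthesis was lower in BAT at its first steps. Phgdh, which commits a glycolytic intermediate to serine, was at 5.26, 8.53 and 9.62 FPKM in BAT and 121, 60.7 and 72.7 FPKM in iWAT (-3.26, SE 0.30, adjusted p = 2.76e-05; chromosome 3, 98117093 to 98143913). Psat1, the next enzyme, was at 0.593, 0.894 and 1.77 FPKM against 32.3, 7.29 and 21.2 FPKM (-3.17). Psph, the last step, went the other way, at 30.6, 25.8 and 30.9 FPKM against 15.5, 6.71 and 15 FPKM (1.24). The cytosolic serine hydroxymethyltransferase Shmt1 was higher in BAT (2.72), as was Gcsh of the glycine cleavage system (2.68). Over the list 5 of 18 were higher in BAT and 7 higher in iWAT. These shares, 27.8% and 38.9%, stand beside 34.5% and 22.9% of all tested genes. The iWAT count was 3 without BAT 3 and 4 with no filter or without BAT 1, BAT 2, iWAT 2 or iWAT 3. Branched-chain amino acid oxidation leaned to BAT, with 20 of 25 higher and 1 lower (2 without BAT 2 or iWAT 2 and under either scaling). Bckdha, of the committing dehydrogenase, differed by 2.55 and Hibadh by 2.60, but the transaminase Bcat2 overlapped, at 91.6, 223 and 124 FPKM against 313, 163 and 243 FPKM (adjusted p = 0.0833).

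Iron, redox and peroxisome genes mostly went with BAT. Heme and iron-sulfur genes had 25 of 36 higher and 1 lower (median 1.20). The latter count was 3 without iWAT 1, 2 without iWAT 2, eWAT 1 or under either scaling, and 0 without BAT 2 or BAT 3. The iron exporter Slc40a1 was at 9.19, 8.91 and 4.40 FPKM in BAT and 0.438, 0.0899 and 0.428 FPKM in iWAT (2.64). The ferritin heavy chain Fth1 was at 1863, 2176 and 1449 FPKM against 403, 303 and 249 FPKM (2.53), with near-identical copies that make its level uncertain. Of 34 tested antioxidant genes, 25 were higher and 2 lower (median 1.16), and quantile normalization left 16 higher. The secreted enzymes Gpx3 (3002, 3600 and 3130 FPKM against 417, 160 and 255 FPKM, 3.65) and Sod3 (97.6, 85.2 and 88.5 FPKM against 23.6, 3.32 and 5.73 FPKM, 3.35) were higher in BAT, as were the mitochondrial Sod2 (2.78) and Prdx3 (2.48). The peroxiredoxin of the endoplasmic reticulum, Prdx4, was lower in BAT (34.6, 24.3 and 23.8 FPKM against 90.0, 194 and 145 FPKM, -2.28). Glutathione transferases were mixed, with 6 of 21 higher and 4 lower. Without iWAT 1, 10 were higher. Without BAT 3, 1 was lower and without BAT 1, 2 were, and leaving out BAT 2, iWAT 2 or iWAT 3 left 3 higher. Gsto1 differed by 2.83, and Gsta3 was at 1.82, 10.5 and 4.68 FPKM in BAT, 39.5, 24.4 and 14.3 FPKM in iWAT and 155 to 217 FPKM in eWAT (-2.14).

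Peroxisomes share fatty acid oxidation with mitochondria, and 31 of 41 tested peroxisomal genes were higher in BAT and 2 lower (median 1.39). Pex11a, which drives peroxisome division, was at 17.6, 20.6 and 15.2 FPKM in BAT and 1.44, 0.803 and 0 FPKM in iWAT (3.51). Ehhadh, of peroxisomal oxidation, was at 40.2, 75.2 and 23.8 FPKM against 8.38, 1.5 and 0.238 FPKM (3.80). The 2 exceptions were the very-long-chain acyl-CoA transporter Abcd2 (-1.23) and Far1, which makes fatty alcohols for ether lipids (-1.79). Cholesterol synthesis, uptake and efflux had 7 of 27 higher and 3 lower, or 15 higher without iWAT 1. The shares were 25.9% and 11.1%, against 34.5% and 22.9% of all tested genes.

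Hormone receptors and their partners included both directions. Thyroid hormone receptors were higher in BAT, Thra at 31.3, 21.2 and 23.1 FPKM against 8.83, 13.3 and 8.09 FPKM (1.25) and Thrb at 4.48, 5.64 and 4.40 FPKM against 0.832, 1.84 and 1.33 FPKM (1.34). The coregulators Ncoa1 (-1.39), Ncoa2 (-1.62) and Ncor1 (-1.62) were lower. Ppara, the nuclear receptor of fatty acid oxidation, was at 18.6, 18.5 and 18.0 FPKM against 0.703, 1.26 and 0.649 FPKM (3.38, SE 0.22, adjusted p = 5.33e-06; chromosome 15, 85565413 to 85633249), while the adipogenic Pparg differed by 1.58. Nr4a1 and Nr4a3, orphan receptors induced by cAMP, went in opposite directions. Nr4a1 was at 111, 168 and 140 FPKM against 6.66, 26.2 and 14.2 FPKM (3.24), and Nr4a3 at 6.4, 3.46 and 6.73 FPKM against 14.4, 44.6 and 25.9 FPKM (-2.07). Of 34 tested nuclear receptors and cofactors 15 were higher and 8 lower (44.1% and 23.5%, against 34.5% and 22.9% of all tested genes). Sirt3, a mitochondrial deacetylase, was at 51.0, 49.6 and 52.6 FPKM against 3.81, 1.37 and 1.70 FPKM (4.05, SE 0.28, adjusted p = 7.62e-06; chromosome 7, 148049569 to 148068208).

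Insulin signalling had no common direction, with 14 of 42 tested genes higher and 8 lower (15 lower after median-ratio or quantile scaling, 13 lower without iWAT 1) and a median of -0.14. The adaptor Sh2b2 was at 11.7, 7.19 and 12.3 FPKM in BAT and 0.927, 0.614 and 0.556 FPKM in iWAT (2.72), and Grb14 (1.83) and the translation repressor Eif4ebp1 (1.75) were higher. Igfbp4, a binding protein of insulin-like growth factors, was at 9.14, 10.9 and 14.3 FPKM against 157, 83.8 and 98.1 FPKM (-3.16). Grb10, a brake on the insulin receptor, was at 0.573, 0.743 and 0.747 FPKM against 4.33, 4.66 and 5.27 FPKM (-1.77). None of these 5 genes overlapped. Adipogenic and brown-fat transcription factors had 20 of 49 higher and 15 lower (40.8% and 30.6%, against 34.5% and 22.9% of all tested genes). The homeobox factor Hlx was at 13.9, 20.8 and 24.2 FPKM against 1.95, 1.32 and 1.45 FPKM (2.98), Irf4 at 5.25, 17.8 and 4.93 FPKM against 0.380, 0.952 and 0.883 FPKM (2.37) and Cebpb at 1186, 1350 and 2100 FPKM against 321, 454 and 320 FPKM (2.05). Nfix was lower, at 32.0, 16.1 and 19.9 FPKM against 85.4, 250 and 159 FPKM (-2.73).

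Secreted factors differed in both directions. Nrtn encodes neurturin, a survival factor for nerve cells. It was at 38.2, 46.2 and 40.2 FPKM in BAT and 4.73, 1.05 and 0.597 FPKM in iWAT (4.00, SE 0.40, adjusted p = 5.01e-05; chromosome 17, 56890748 to 56896953). Nrg4, a growth factor known as a brown fat signal, was at 57.0, 57.2 and 52.1 FPKM against 15.5, 10.6 and 8.41 FPKM (2.21). Vegfb was at 402, 381 and 332 FPKM against 160, 74.0 and 51.6 FPKM (2.11), whereas Vegfa, the main angiogenic member, was at 54.0, 37.1 and 49.1 FPKM against 26.5, 44.0 and 32.4 FPKM and was not called (adjusted p = 0.206). The peptide Apln was higher (1.83), and Pdgfd was at 1.55 to 2.3 FPKM in BAT and listed at 0 in all 3 iWAT libraries. Bmp7 (-1.73), the endothelin gene Edn1 (-1.97) and the prostaglandin E synthase Ptges (1.10, 2.04 and 2.01 FPKM against 16, 9.84 and 17.0 FPKM, -2.48) were lower. Among adipokines 4 of 21 were higher and 9 lower. Fam132a was at 145, 192 and 156 FPKM against 70.7, 19.1 and 25.1 FPKM (2.29), and chemerin, Rarres2, at 20.5, 26.6 and 33.6 FPKM against 546, 140 and 282 FPKM (-3.35).

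Complement genes were lower in BAT at the early classical and alternative steps. C4b, the component cleaved after C1, was at 1.15, 2.54 and 3.59 FPKM in BAT, 128, 35.8 and 126 FPKM in iWAT and 62.5 to 119 FPKM in eWAT (-4.69, SE 0.49, adjusted p = 5.99e-05; chromosome 17, 34865325 to 34880827). Its near-identical neighbour C4a differed by -3.30, so the split between them is uncertain. C2 was at 0.438, 1.32 and 1.90 FPKM against 43.9, 15.6 and 33.2 FPKM (-3.79; chromosome 17, 34999549 to 35035397), and the adjacent Cfb at 1.07, 2.56 and 2.82 FPKM against 57.8, 19 and 41.5 FPKM (-3.60; 34993319 to 34999463). Adipsin, Cfd, which cleaves the Cfb product, was at 2944, 7280 and 4718 FPKM against 35289, 14643 and 26752 FPKM (-2.36). The central component C3 was at 68.2, 122 and 67.8 FPKM in BAT and 84.7, 46.5 and 57.4 FPKM in iWAT, overlapped and was not called (adjusted p = 0.267). Of 17 tested complement genes 10 were lower and 2 higher in BAT. The 2 higher were C8g (12.8, 13.9 and 9.89 FPKM against 2.3, 0.323 and 2.05 FPKM, 2.47) and the membrane inhibitor Cd59a (1.25).

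**Figure D4:**
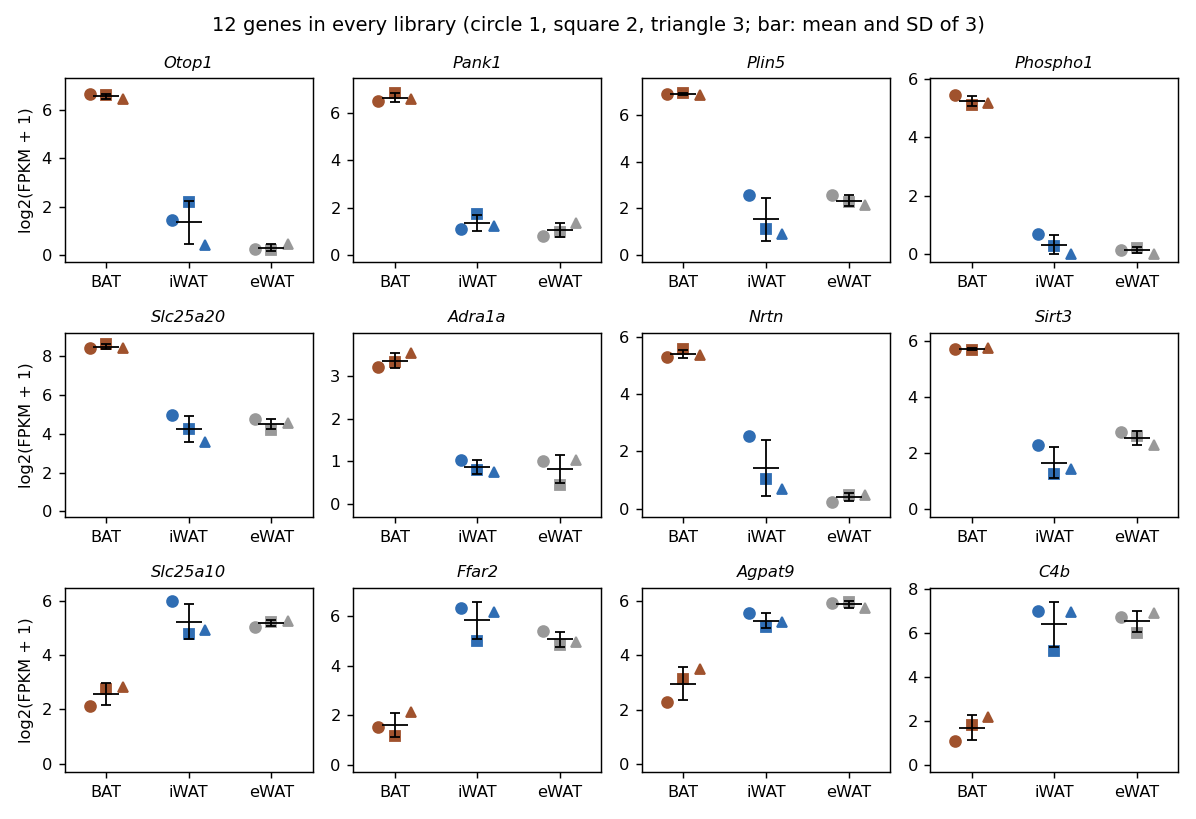
Level of 12 genes in each library on the log2(FPKM + 1) scale for BAT, iWAT and eWAT, with circle, square and triangle for replicates 1, 2 and 3 and a bar for the mean and SD. In each panel all 3 BAT libraries lie on one side of all 3 iWAT libraries; Slc25a10, Ffar2, Agpat9 and C4b are lower in BAT and the other 8 higher.

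Most white adipocyte genes were higher in iWAT. Of 22 tested genes in the white adipocyte list 19 were higher in iWAT and 1 higher in BAT, or 2 without iWAT 1 (median -2.83). Prkcdbp, a caveolar adaptor, was at 1.56, 7.73 and 9.19 FPKM in BAT and 214, 55.6 and 64.3 FPKM in iWAT (-3.92), and the synuclein Sncg at 4.92, 3.5 and 12.4 FPKM against 334, 42.9 and 75.6 FPKM (-3.88). Anxa1, a membrane-binding mediator of inflammation, was at 0.404, 0.847 and 1.55 FPKM in BAT, 50.9, 14.5 and 36.7 FPKM in iWAT and 124 to 131 FPKM in eWAT (-4.05, SE 0.40, adjusted p = 4.55e-05). S100a6 was lower (-3.61), but S100b, another small calcium-binding protein, was at 122, 153 and 145 FPKM in BAT and 1.95, 1.11 and 0 FPKM in iWAT. Fibrillar and basement membrane collagens had 10 of 15 higher in iWAT and none higher in BAT (1 without iWAT 2). Other matrix genes had 14 of 27 higher in iWAT and 4 higher in BAT (1 without iWAT 2, and 2 without BAT 1, BAT 2, BAT 3 or iWAT 3 and after median-ratio scaling). Stromal progenitor markers, of which 5 of 16 were tested, summed to 81.4 to 175 FPKM in BAT and 1392 to 2696 FPKM in iWAT, with 3 called higher in iWAT and a median of -1.71. Their part in the matrix and complement differences was not tested. The protease inhibitor Timp4 was at 1.62, 1.62 and 3.10 FPKM in BAT, 56.5, 9.93 and 34.4 FPKM in iWAT and 269 to 383 FPKM in eWAT (-3.21). Antigen presentation and interferon genes had 13 of 21 higher in iWAT, or 8 without BAT 3, and 1 higher in BAT (0 without BAT 1, BAT 2, iWAT 2 or iWAT 3, 2 without iWAT 1). The nonclassical class I gene H2-T23 was at 2.13, 3.27 and 1.83 FPKM against 53.1, 19.3 and 30.6 FPKM (-3.28), while the shared light chain B2m was not called (adjusted p = 0.803).

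The major urinary proteins, small lipocalins known mainly as secreted liver proteins, were high in iWAT and low in BAT. Mup13 was at 1.24, 2.47 and 9.09 FPKM in BAT, 216, 88.7 and 210 FPKM in iWAT and 0.130 to 2.01 FPKM in eWAT (-5.23). Mup19, Mup12, Mup16 and Mup8 differed by -4.81, -4.71, -4.70 and -4.54. The copies are nearly identical, so the level of any single Mup gene is uncertain. Within BAT, the third library, the one with the inguinal tissue field, was the highest for Mup13 and Mup19, and also for the imprinted Nnat (4.17, 4.61 and 36.1 FPKM in BAT, 291 to 1776 FPKM in iWAT) and the matrix gene Dpt. In all 4 genes it remained below every iWAT library. Over all genes higher in iWAT these 4 are not typical. BAT 3 was the highest BAT library in 18.1% of the genes higher in iWAT and in 25.4% of all tested genes, and BAT 1 in 71.1% and 48.6%. The lists differed, however. Among members called higher in iWAT, BAT 3 led in 12 of 19 white adipocyte, 8 of 10 complement, 8 of 14 matrix and 6 of 10 collagen genes. It led in 6 of 16 muscle, 1 of 15 developmental and 0 of 11 epithelial genes. The cause was not tested. Without BAT 3 the differences were -5.84 for Mup13, -7.16 for Nnat (from -6.23) and -5.73 for Dpt (from -5.02).

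Genes higher in iWAT fell into sets with unlike profiles over the libraries. Called members of the white adipocyte list (19 genes) lay above their own mean by 1.81, 1.51 and 1.71 in the 3 eWAT libraries, and iWAT 2 was the lowest iWAT library at -0.01, with iWAT 1 at 1.29 and iWAT 3 at 0.70. The 10 complement and 14 matrix genes had the same order. The 16 muscle genes were high in all 3 iWAT libraries (2.35, 1.75 and 1.78), in eWAT 2 and eWAT 3 (1.33 and 1.05) but not in eWAT 1 (-1.97), which was at the level of BAT. The 11 epithelial genes, 15 developmental transcription factors, 11 heat shock genes and 14 cytosolic translation genes were highest in iWAT 2 (1.45, 1.28, 1.07 and 1.02), lower in iWAT 1 (0.32, 0.35, 0.28 and 0.26), and below their mean in eWAT 1 (-0.54, -0.68, -0.59 and -0.52). Over all 2378 genes higher in iWAT, iWAT 2 was the highest iWAT library in 68.3% (34.2% of all tested genes), and eWAT 1 was nearer to BAT than to iWAT in 71.9% (53.6% of all tested genes). The estimated depth of eWAT 1, 16.05 M reads, lay inside the BAT range, against 4.46 and 4.57 M in eWAT 2 and eWAT 3. The part of depth in these profiles was not tested.

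**Figure D5:**
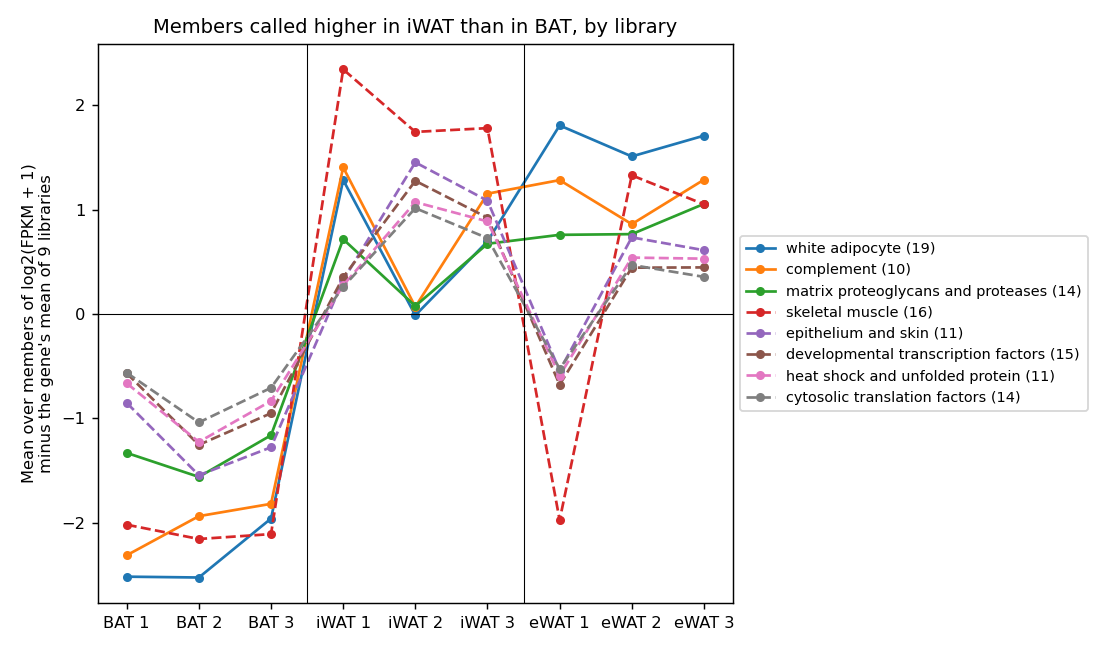
Mean deviation from each gene's mean over the 9 libraries, on the log2(FPKM + 1) scale, for the members of 8 lists that were called higher in iWAT. White adipocyte, complement and matrix genes (solid) are high in all eWAT libraries and lowest of iWAT in iWAT 2; muscle, epithelial, developmental, heat shock and translation genes (dashed) are low in eWAT 1.

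The second kind of profile held genes of every cell. The elongation factor Eef1a1 was at 3218, 1894 and 2864 FPKM in BAT and 5293, 13698 and 9673 FPKM in iWAT (-1.78), and the poly(A)-binding protein Pabpc1 at 797, 311 and 517 FPKM against 1388, 4365 and 2923 FPKM (-2.37). The epidermal keratin Krt5 had the same order, at 19.9, 10.3 and 15.8 FPKM in BAT, 68.3, 188 and 127 FPKM in iWAT and 29.3, 87.3 and 79.7 FPKM in eWAT (-2.91). The chaperone Hspa1a (39.3, 13.9 and 24.6 FPKM against 92.7, 258 and 195 FPKM, -2.76, with a near-identical copy) and the homeobox gene En1 (5.55, 2.04 and 3.91 FPKM against 15, 35.6 and 24.3 FPKM, -2.42) followed it too. For each of these 5 genes BAT 2 was the lowest BAT library and iWAT 2 the highest iWAT library. The part of skin or muscle RNA in these values was not tested. In cytosolic translation 14 of 47 genes were higher in iWAT and 12 higher in BAT. The shares were 29.8% and 25.5%, against 22.9% and 34.5% of all tested genes. The iWAT count was 23 after median-ratio scaling, 26 under quantile normalization and 9 without BAT 2. Few markers of vessel and immune cells passed the filter: of those listed, 5 of 16 for endothelium, 6 of 23 for myeloid cells and 1 of 20 for lymphocytes. Their sums were 7.90 to 10.5, 8.53 to 11.2 and 1.12 to 2.38 FPKM in BAT and 5.83 to 23.8, 16.6 to 18.4 and 2.71 to 5.05 FPKM in iWAT. Sums of 27 general adipocyte genes were 37210 to 46237 FPKM in BAT and 49693 to 92598 FPKM in iWAT, a sum led by Fabp4 and Cfd, while 14 of the 27 were called higher in BAT and 5 higher in iWAT (median 0.89).

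Hox genes, which record position along the body axis, differed in both directions, with 8 of 28 higher in BAT (5 without BAT 2, BAT 3 or iWAT 3 and after median-ratio scaling) and 10 higher in iWAT. Their shares were 28.6% and 35.7%, against 34.5% and 22.9% of all tested genes. Hoxa5 was at 35.8, 46.6 and 24.5 FPKM in BAT and 2.1, 1.04 and 0.611 FPKM in iWAT (4.03), and its cluster neighbour Hoxa4 differed by 3.04. Hoxc9, from the more posterior part of its cluster, was lower (-2.85). Des, an intermediate filament gene shared by muscle and brown fat, was at 34.7, 43.4 and 41.2 FPKM in BAT and 5.56, 5.45 and 4.10 FPKM in iWAT (2.76), opposite to the 16 of 19 tested muscle genes that were higher in iWAT.

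The circadian clock, immediate early and proteasome lists had shares higher in BAT of 16.7%, 20.8% and 23.1%, below the 34.5% of all tested genes. Their shares higher in iWAT were 16.7%, 37.5% and 23.1%, beside 22.9% of all tested genes. For the lysosomal proton pump list the shares were 41.2% higher in BAT and 5.88% higher in iWAT. The circadian clock had 3 of 18 genes higher (5 with array weights) and 3 lower, with a difference of -1.47 for Arntl. Its output gene Dbp ranged from 7.98 to 78.4 FPKM within BAT and from 1.54 to 13 FPKM within iWAT and was not called. Immediate early genes had 5 of 24 higher and 9 lower. Proteasome genes had 9 of 39 higher and 9 lower, which went to 4 and 15 under quantile normalization and to 13 higher without iWAT 1, while 5 were lower without BAT 3 or iWAT 3 and with no filter. The proton pump of lysosomes had 7 of 17 higher and 1 lower, the latter 5 under quantile normalization, 4 after median-ratio scaling and 2 without iWAT 1 or iWAT 2. Its membrane subunit Atp6v0c was at 178, 218 and 142 FPKM in BAT and 12.4, 6.52 and 0.0275 FPKM in iWAT, and the call (5.24) was lost without iWAT 3, with a pseudocount of 0.1 and with no filter (highest adjusted p = 0.0727).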

How the data were processed

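Gene levels are FPKM values that the authors deposited in 1 table of 22996 lines. Per the submitters' processing notes, reads were aligned to mm9 with TopHat and FPKM came from Cufflinks; versions are not given in the sources used here. The table held 22527 symbols; for the 259 on more than 1 line the line with the highest mean was used. The 10374 genes that reached 1 FPKM in 3 or more of 9 libraries were fitted on log2(FPKM + 1) with limma 3.58.1 in R 4.3.3 (3 group means, trended empirical Bayes), and p-values were adjusted by Benjamini-Hochberg over all of them, with calls below 0.05. The method was first run on simulated data with few changed genes and independent noise. That simulation held no differences of depth or scaling between libraries, so it does not test their effect on the calls.

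Depth was estimated from the steps of low FPKM values, of which 44.3% to 63.4% lay within 0.15 of a whole read. These steps were not clear enough to recover counts, so no count test was run, and the depths are approximate. Coordinates are mm9, from GENCODE M1. Promoter windows are from RefSeq. Isoform shares were tested by exact permutation.

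The gene lists and the comparison were chosen with earlier results of these data known, so their counts are descriptions and no list was tested. Genes named are a fixed core set, the 15 largest non-overlapping differences in each direction with a higher mean of at least 5 FPKM, up to 5 called genes in each direction and 3 of the most abundant not called in each list, and the members of 24 isoform families. The results were recomputed without the filter, with a pseudocount of 0.1, over genes with a mean of 5 FPKM or more, with median-ratio and quantile scaling, with BAT and iWAT fitted alone, with array weights, with the replicate number as a block, with a minimum change of 2-fold, and after dropping any single library. Some genes that this rule names are not reported here.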

Additional observations from a re-analysis of the deposited data

How the results depend on the processing

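Of 599 named genes tested, 442 were called, and 377 of these kept their call under every alternative, while 65 lost it under at least 1. Of the 157 not called, 77 were called under at least 1 alternative. The 5961 calls (3583 higher and 2378 lower in BAT) ranged over 4535 to 6843, 2933 to 4189 and 1602 to 2654 when each library was left out in turn. Median-ratio scaling split them into 3008 and 2913, and quantile normalization into 2936 and 2851. Requiring a mean of at least 5 FPKM gave 3783 calls, 1374 of them lower, over the 5934 genes that this leaves. Under quantile normalization 2 genes that were not called at 0.01 became called in the opposite direction, Lipe at -0.69 and Psmb4 at -0.64; the cause was not tested. Same-numbered BAT and iWAT libraries deviated from their group means with correlations of -0.324, -0.225 and 0.121. Those with different numbers ranged from -0.211 to 0.335. Deviations from a mean of 3 libraries are not independent, so these values cannot tell whether the replicate numbers pair BAT with iWAT. Same-numbered iWAT and eWAT libraries had correlations of 0.634, 0.534 and 0.165. Those with different numbers ranged from -0.576 to 0.228, a range that holds the 0.165 of number 3. This contrast was not tested here. With the replicate block, 6080 genes were called (3635 and 2445), and 6 clock genes were higher in BAT in place of 3. Depth limits genes near 1 FPKM, above all in iWAT, whose libraries hold an estimated 2.91 to 4.65 M reads.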

Other observations

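Vessel and nerve growth factors had 6 of 22 tested genes called higher in BAT and 10 higher in iWAT (limma, Benjamini-Hochberg, median -0.27). The shares were 27.3% and 45.5%, against 34.5% and 22.9% of all tested genes. The guidance factor Slit3 differed by -2.29, the anti-angiogenic Thbs1 by -2.77 and the ephrin Efna1 by -2.83. Fgf10, a growth factor for fat precursors, was at 0.390, 0.249 and 0.329 FPKM in BAT and 7.25, 4.69 and 3.73 FPKM in iWAT (-2.20). The imprinted gene Mest, which is linked to fat cell enlargement, was at 10.8, 4.89 and 7.10 FPKM against 39.9, 80.0 and 57.3 FPKM (-2.81). None of these genes overlapped between the depots.

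The citric acid cycle held a pair of large differences at 1 step. In succinyl-CoA ligase, the shared subunit Suclg1 and the ATP-specific subunit Sucla2 were higher in BAT by 5.87 and 4.02, with Sucla2 at 1153, 1170 and 1320 FPKM against 87.6, 61.1 and 74.6 FPKM. Mitochondrial ribosomal genes were called higher in BAT in 70 of 76 tested and higher in iWAT in none. Mrps36, which was named as a ribosomal protein but serves the oxoglutarate dehydrogenase complex, was at 540, 518 and 452 FPKM against 41.3, 9.73 and 15.7 FPKM (4.68, SE 0.42, adjusted p = 2.53e-05). The electron transfer dehydrogenase Etfdh differed by 5.05 and cytochrome c, Cycs, by 4.23.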
